A study of Mus musculus with 6 samples.

Results

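The interferon-inducible GTPases described here are 10 genes, 6 guanylate-binding proteins (GBPs: Gbp2, Gbp3, Gbp4, Gbp6, Gbp7 and Gbp9) and 4 immunity-related GTPases (IRGs: Igtp, Irgm1, Irgm2 and Iigp1), named by symbol among the 55487 genes of the deposited tables. All 10 were found and all passed the filter on low counts. They were measured in poly(A) RNA of naive CD4+ T cells from the spleen of C57BL6/J mice of WT genotype, in 3 libraries from mice given rapamycin in vivo and 3 from mice given no treatment. Rapamycin inhibits mTOR, a kinase that couples growth signals to protein synthesis. Its dose and schedule, and the age and sex of the mice, are not given in the sources used here, and nothing in the labels ties a library to 1 mouse, so that p-values reflect library-to-library spread, part or all of which may be technical.

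GBPs and IRGs are GTPases that cells make in response to interferons, above all interferon gamma. The interferon receptors signal through JAK kinases to transcription factors, among them the interferon regulatory factors, that bind upstream of the GTPase genes. The proteins gather on the membranes around intracellular bacteria and parasites and help to break them open. Within the IRGs, Igtp, Irgm1 and Irgm2 are regulators that sit on the cell's own membranes and hold effector IRGs such as Iigp1 inactive there, and in mouse CD4+ T cells Irgm1 is known for protecting activated cells from death under interferon gamma.

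The letters upstream of these genes are shown first, since they are what interferon-activated factors are known to read. RefSeq promoters on GRCm38.p6, running from 250 bases before to 50 bases after the transcript start, were matched for 6 of the 10 genes, Gbp2, Gbp3, Gbp7, Igtp, Irgm1 and Irgm2, and not for Gbp4, Gbp6, Gbp9 and Iigp1. They were searched on both strands for the interferon-stimulated response element (ISRE, GAAANNGAAA) and the gamma-activated site (GAS, TTCNNNGAA). Each line gives the 100 bases that end 11 bases before the start, 5′ to 3′ on the gene's strand, with matches to either motif in capitals.
Gbp2 (chr3:142620553-142620652, plus strand): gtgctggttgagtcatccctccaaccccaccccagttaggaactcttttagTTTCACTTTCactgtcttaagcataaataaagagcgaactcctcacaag
Gbp3 (chr3:142559934-142560033, plus strand): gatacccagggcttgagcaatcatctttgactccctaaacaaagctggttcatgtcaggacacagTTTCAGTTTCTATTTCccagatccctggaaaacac
Gbp7 (chr3:142530226-142530325, plus strand): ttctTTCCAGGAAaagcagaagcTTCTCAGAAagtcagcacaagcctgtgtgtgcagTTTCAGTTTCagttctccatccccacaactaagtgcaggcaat
Igtp (chr11:58199446-58199545, plus strand): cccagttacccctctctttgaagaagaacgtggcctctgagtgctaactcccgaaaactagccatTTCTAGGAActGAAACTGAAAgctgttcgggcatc
Irgm1 (chr11:48871431-48871530, minus strand): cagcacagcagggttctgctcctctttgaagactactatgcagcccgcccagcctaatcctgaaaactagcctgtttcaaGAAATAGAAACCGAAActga
Irgm2 (chr11:58214867-58214966, plus strand): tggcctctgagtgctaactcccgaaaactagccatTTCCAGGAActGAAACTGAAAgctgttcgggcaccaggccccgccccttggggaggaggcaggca
The ISRE letters occurred in 6 of the 7 promoters of these genes, against 3.44% of all 32851 promoters in the table, and the GAS letters in 3 of the 7, those of Gbp7, Igtp and Irgm2, against 8.30%. Gbp3 has 2 promoters in the table, and the one not printed held neither motif. In Gbp3 and Irgm1 the capitals are 2 ISRE matches that overlap each other. The Igtp and Irgm2 windows, placed against each other without gaps, were identical at 68 of 70 bases. A match is a string of letters and was not tested as a binding site.

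In Igtp and Irgm2 a GAS match stood 2 bases before an ISRE match. This spacing was chosen after the sequences were seen. It occurred in 5 of the 32851 promoters, or 0.0152%, and all 5 belong to IRG genes on chromosome 11. The other 3 are Tgtp1 and Tgtp2, which encode effector IRGs, and the predicted gene Gm12185.
Igtp (chr11:58199511-58199531, plus strand): TTCTAGGAActGAAACTGAAA
Irgm2 (chr11:58214902-58214922, plus strand): TTCCAGGAActGAAACTGAAA
Tgtp1 (chr11:48992314-48992334, minus strand): TTCCAGGAAtcGAAACTGAAA
Tgtp2 (chr11:49064273-49064293, minus strand): TTCCAGGAAtcGAAACCGAAA
Gm12185 (chr11:48927248-48927268, minus strand): TTCCAGGAAtaGAAAGTGAAA
With rapamycin, these 5 genes had log2 fold changes between -0.63 and -0.29 in the comparison below. IRG genes whose promoters lack this spacing went both ways. Irgm1, Ifi47 and Gm12250 were lower, and 9930111J21Rik1, 9930111J21Rik2 and Irgq were higher. Any part of the spacing in these changes was not tested.

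**Figure D1:**
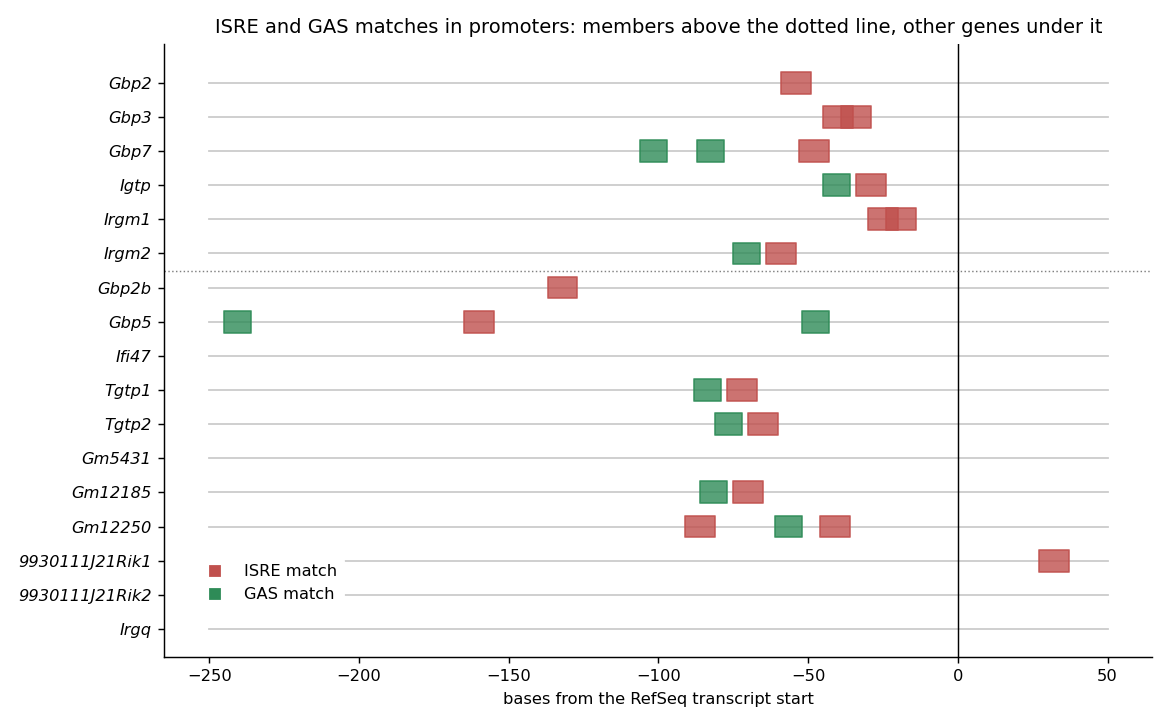
Positions of ISRE (red) and GAS (green) matches, on either strand, in bases from the RefSeq transcript start, for the members with a promoter in the table (above the dotted line; for Gbp3 the promoter that holds matches) and for other GBP and IRG genes (under it). Grey lines mark the stretch searched; Igtp, Irgm2, Tgtp1, Tgtp2 and Gm12185 share a green box 2 bases before a red one.

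With rapamycin, 9 of the 10 GTPase genes were lower and 0 were higher. The falls ranged from 2.21-fold in Iigp1 to 1.096-fold in Gbp7, and Gbp9 did not pass the test. The comparison used edgeR's quasi-likelihood test on rounded expected counts, with Benjamini-Hochberg adjustment over 11950 genes and a threshold of 0.05, under which 23.3% of all genes were called lower and 24.1% higher. Log2 fold changes are rapamycin over untreated and are given with their SE. The median over the 10 genes was -0.61, against -0.01 over all genes tested. 5 of the 10, Iigp1, Gbp2, Gbp3, Gbp6 and Igtp, were called and at least 1.5-fold lower, as were 4.88% of all genes. Tested against a fold of 1.2 in place of no change, 6 were lower, adding Irgm1, against 7.48% of all genes. Levels below are CPM, expected counts divided by library size and scaled by TMM factors. On that scale every rapamycin library lay under every untreated library for all 10 genes, as for 26.8% of all genes.

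**Figure D2:**
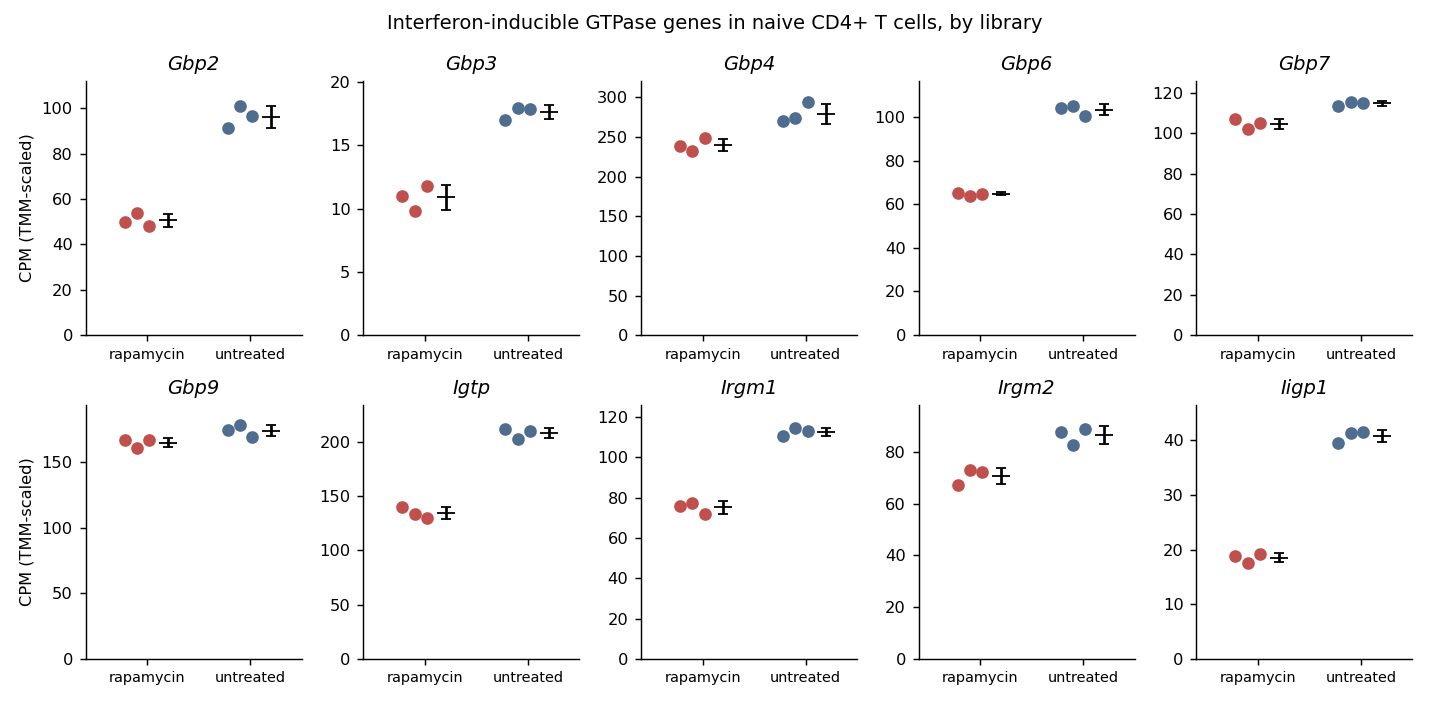
CPM of each of the 10 genes in each library, with the 3 rapamycin libraries (red) left of the 3 untreated ones (blue); black marks show mean and SD, and every axis starts at 0. The groups part widely for Iigp1, Gbp2 and Gbp6 and narrowly for Gbp7 and Gbp9.

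Among the IRGs, the effector Iigp1 (ENSMUSG00000054072, chr18:60376027-60392634 on GRCm38, plus strand), whose product coats and disrupts parasite vacuoles, fell the most. It had 18.8, 17.6 and 19.1 CPM in the rapamycin libraries, against 39.6, 41.4 and 41.5 CPM in the untreated libraries. The groups lay far apart, and the log2 fold change was -1.14 ± 0.09 (n = 3 each, edgeR adjusted p = 1.16e-17). Iigp1 ranked 161st from the lowest of the 11950 log2 fold changes.

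The 3 regulatory IRGs had smaller fold changes than the effector. Igtp (ENSMUSG00000078853, chr11:58199556-58207591, plus strand) had 140.1, 133.6 and 129.5 CPM in rapamycin libraries and 212, 203 and 209.8 CPM in untreated libraries. The rapamycin level of Igtp was 64.6% of the untreated one, and the groups did not come near each other. Irgm1 (ENSMUSG00000046879, chr11:48861968-48871683, minus strand) had 76.1, 77.6 and 71.7 CPM in rapamycin libraries and 110.5, 114.5 and 113 CPM in untreated libraries. Irgm1 changed by -0.58 ± 0.05 (edgeR adjusted p = 3.15e-16). Irgm2 (ENSMUSG00000069874, chr11:58199618-58222782, plus strand) fell by 0.29 ± 0.05 on the log2 scale, with 67.2 to 73.0 CPM in rapamycin libraries and 82.7 to 89.1 CPM in untreated libraries (edgeR adjusted p = 5.22e-06). The annotated spans of Igtp and Irgm2 overlap on the same strand, and 11.8% of the 50-base words of Igtp transcripts also occur in Irgm2 transcripts, so how reads are split between these 2 genes is uncertain.

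The GBPs lie in 2 clusters, with Gbp2, Gbp3 and Gbp7 on chromosome 3 and Gbp4, Gbp6 and Gbp9 on chromosome 5. On chromosome 3, Gbp2 (ENSMUSG00000028270, chr3:142620602-142638008, plus strand), a lipid-anchored GBP that is recruited to parasite and bacterial vacuoles, had 50.02, 53.8 and 48.0 CPM in rapamycin libraries, against 91.5, 101 and 96.5 CPM in untreated libraries. The level with rapamycin was 52.6% of the untreated one, a log2 fold change of -0.93 ± 0.06 (edgeR adjusted p = 9.2e-22). Its neighbour Gbp3 (ENSMUSG00000028268, chr3:142560026-142573209, plus strand) averaged 10.9 ± 1.01 CPM with rapamycin and 17.6 ± 0.547 CPM untreated (SD, n = 3 each), and fell by 0.69 ± 0.12 on the log2 scale (edgeR adjusted p = 3.62e-06). The third chromosome 3 gene, Gbp7 (ENSMUSG00000040253, chr3:142530342-142550149, plus strand), whose product is known for bringing the oxidase that makes reactive oxygen to vacuoles, was nearly level. It had 107, 102 and 105 CPM in rapamycin libraries and 113.6, 115.7 and 115 CPM in untreated libraries, a log2 fold change of -0.13 ± 0.04 (edgeR adjusted p = 0.00901). That call was lost with DESeq2 (adjusted p = 0.0524) and, in edgeR, without rapamycin replicate 2 (adjusted p = 0.0512).

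On chromosome 5, Gbp6 had the largest change of the 3 genes. Gbp6 (ENSMUSG00000104713, chr5:105270702-105293698, minus strand) had 65.3, 63.96 and 64.8 CPM in rapamycin libraries and 104, 105 and 100.6 CPM in untreated libraries. Its rapamycin libraries nearly coincided, and it fell by 0.68 ± 0.05 on the log2 scale (edgeR adjusted p = 5.28e-18). Gbp6 cannot be cleanly told apart from its copies, since 70.7% of its 50-base transcript words occur in other genes, mainly Gm43302 and Gbp10. Summed before the fit, a choice made after seeing the data, Gbp6, Gbp10 and Gm43302 had 75.1 ± 0.239 CPM with rapamycin and 119 ± 1.46 CPM untreated, a log2 fold change of -0.67 ± 0.05 (edgeR adjusted p = 3.08e-19).

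Gbp4 and Gbp9, the GBPs with the highest per-length levels, moved least on chromosome 5. Gbp4 (ENSMUSG00000079363, chr5:105115767-105139586, minus strand) had 238, 233 and 248.9 CPM in rapamycin libraries and 270.1, 274 and 294 CPM in untreated libraries, and fell by 0.22 ± 0.03 on the log2 scale (edgeR adjusted p = 3.16e-08, and 0.056 with effective-length offsets). Gbp9 (ENSMUSG00000029298, chr5:105077630-105139539, minus strand) had 167, 161 and 167 CPM in rapamycin libraries and 175, 178 and 169 CPM in untreated libraries. Its log2 fold change was -0.08 ± 0.03, with a 95% interval from -0.15 to -0.01 before adjustment and an edgeR adjusted p = 0.0559, or 0.0268 without untreated replicate 3. The annotated spans of Gbp4, Gbp9 and Gbp8, a GBP gene described below, overlap on the same strand. Of the transcript words of Gbp4 and Gbp9, 7.70% and 8.05% also occur in other genes, as do 18.1% of those of Gbp8. How reads are split among these genes is therefore uncertain.

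Levels of different genes can be compared per transcript length, as the deposited TPM, in which a gene's count is divided by its effective length and by the library's total. Igtp held the highest level in both groups, at 109 ± 4.50 TPM with rapamycin and 159 ± 3.65 TPM untreated (SD, n = 3 each). With rapamycin Gbp4 followed at 99.4 ± 9.49 TPM, and its libraries overlapped those of Igtp, whereas untreated Gbp4, at 106 ± 8.08 TPM, did not reach Igtp. Next with rapamycin came Gbp9 at 61.8 ± 3.34 TPM and Irgm1 at 53.8 ± 2.13 TPM, which did not overlap. Untreated libraries had these in the other order, with Irgm1 at 75.8 ± 1.35 TPM above Gbp9 at 59.4 ± 1.69 TPM, again without overlap.

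Lower in that order, the rapamycin libraries had Gbp7 at 35.3 ± 1.23 TPM above Gbp2 at 31.4 ± 1.99 TPM, Irgm2 at 30.8 ± 1.41 TPM and Gbp6 at 29.5 ± 0.414 TPM, of which the last 3 overlapped each other. In untreated libraries Gbp2 stood at 55.8 ± 2.97 TPM, overlapping Gbp9, and Gbp6 at 44.7 ± 1.01 TPM. Irgm2 at 35.2 ± 1.37 TPM and Gbp7 at 33.5 ± 0.466 TPM overlapped below them. Iigp1, at 10.4 ± 0.687 TPM with rapamycin and 21.4 ± 0.446 TPM untreated, and Gbp3, at 6.45 ± 0.332 TPM with rapamycin and 9.49 ± 0.299 TPM untreated, were the lowest in both groups.

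**Figure D3:**
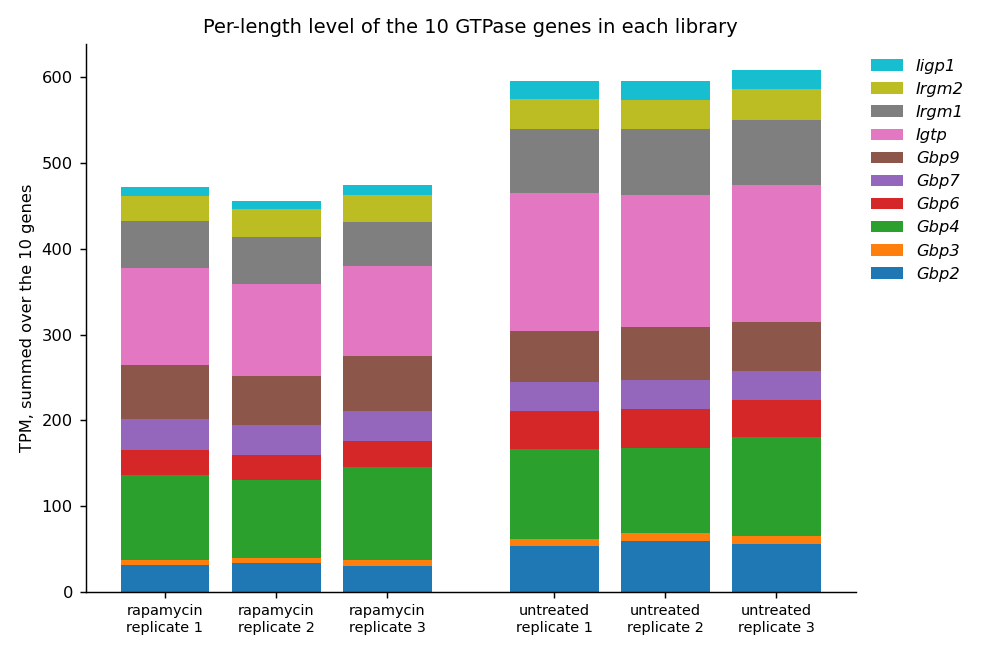
Deposited TPM of the 10 genes stacked in each library, rapamycin libraries on the left. The stack reached between 456 and 474 TPM in rapamycin libraries and between 595 and 608 TPM in untreated libraries, and the Igtp band, 109 TPM with rapamycin and 159 TPM untreated, differs the most.

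Summed over the 10 genes, TPM was 467 ± 10.3 with rapamycin and 600.0 ± 7.37 untreated, or 22.1% lower. The 4 IRGs together were 30.01% lower, at 204 ± 4.63 TPM with rapamycin and 291 ± 3.68 TPM untreated. The 6 GBPs were 14.7% lower, at 264 ± 11.5 TPM with rapamycin and 309 ± 5.77 TPM untreated. The mixture shifted with the total: Gbp9 made up 13.2% of the summed TPM with rapamycin and 9.91% untreated, Gbp4 21.3% with rapamycin and 17.7% untreated, and Gbp2 6.73% with rapamycin and 9.30% untreated. These sums are deposited values with no test of their own.

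The scale mattered for the 4 genes with the smallest changes. In TPM, 7 of the 10 genes had every rapamycin library under every untreated one, as did 14.8% of all genes, and 1, Gbp7, had every rapamycin library above, as did 32.2%. Gbp4 and Gbp9 overlapped. A limma test on log2(TPM + 1) called 6 genes lower, against 9.63% of all genes, and 0 higher, against 22.8%. On that scale the log2 fold change, which understates low genes, was 0.07 for Gbp7 (limma adjusted p = 0.392), 0.05 for Gbp9 (limma adjusted p = 0.512), -0.10 for Gbp4 (limma adjusted p = 0.41) and -0.19 for Irgm2 (limma adjusted p = 0.0715). The median of all genes lay at 0.09 there, above all 4 of these values.

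A correction for gene length moved the same 4 genes the other way. With a spline on gene length as offset, all 10 genes were called lower, against 18.3% of all genes, and 0 higher, against 20.2%. Gbp9 was then at -0.21 (edgeR adjusted p = 1.74e-06), Gbp7 at -0.30, Gbp4 at -0.32 and Irgm2 at -0.37. The other 6 genes lay between -1.16 and -0.56. Gbp7 also differed in the transcript length that the deposited tables assign to it, a mean over its 2 annotated transcripts weighted by their estimated share. That length was 4325, 4380 and 4514 bases in rapamycin libraries and 4733, 4722 and 4804 bases in untreated libraries, with no overlap. Among 10228 tested genes with more than 1 transcript, 9.98% were shorter without overlap. Igtp went the other way, at 1979 to 1999 bases in rapamycin libraries and 1964 to 1970 bases in untreated libraries, as did 7.14% of those genes. With offsets for the deposited effective lengths, the log2 fold change of Gbp7 was -0.04 (edgeR adjusted p = 0.642).

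**Figure D4:**
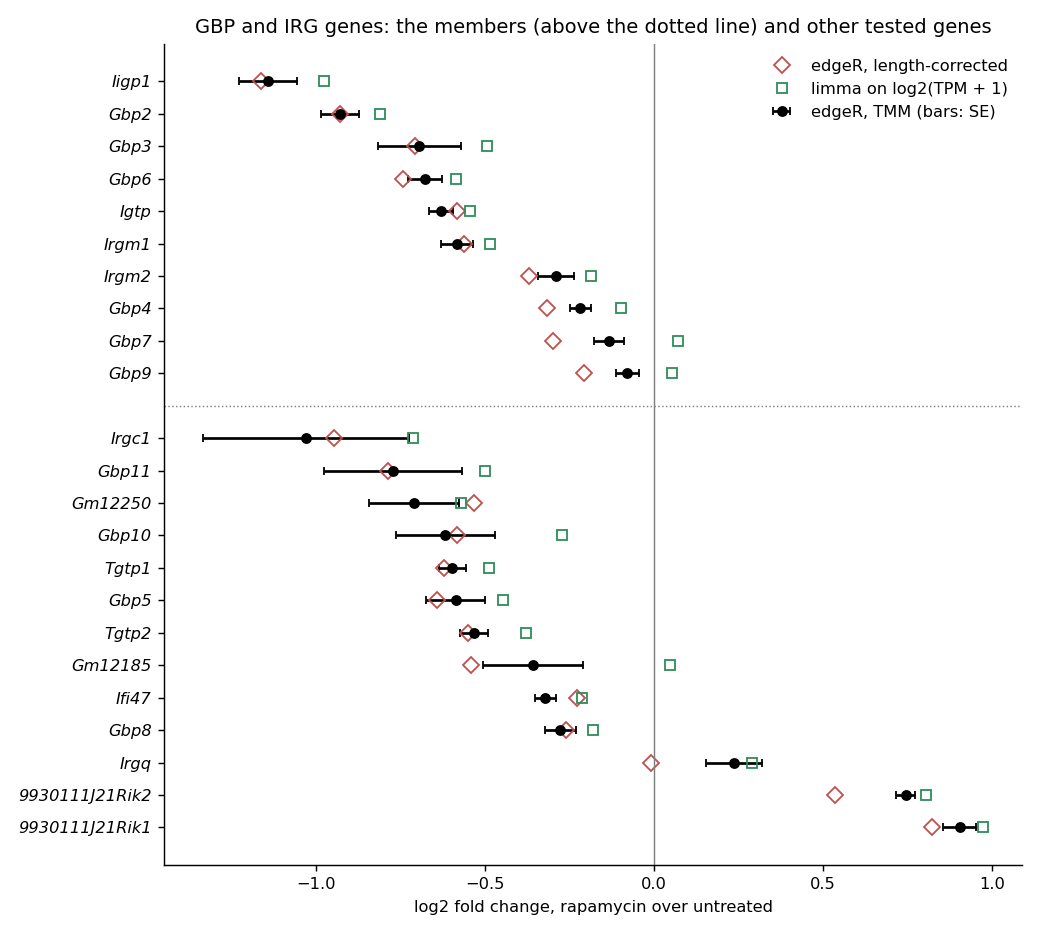
Log2 fold changes, rapamycin over untreated, of the 10 members (above the dotted line) and of 13 other GBP and IRG genes (under it), from edgeR with SE bars (black), edgeR with the length correction (red diamonds) and limma on log2(TPM + 1) (green squares). From Iigp1 down to Irgm1 the 3 estimates lie well left of 0; for Gbp7 and Gbp9 the green squares cross 0; 9930111J21Rik1 and 9930111J21Rik2 stand at the far right.

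Of 19 other GBP and IRG genes 6 did not pass the filter and 13 were tested. Of these 10 were lower and 3 higher, against the 23.3% and 24.1% of all genes. On the log2(TPM + 1) scale 5 were called lower. Gbp5, which promotes inflammasome assembly, changed by -0.59 ± 0.09, Gbp8 by -0.28 ± 0.05, Gbp10 by -0.62 ± 0.15 and Gbp11 by -0.77 ± 0.20. On the log2(TPM + 1) scale Gbp8 (limma adjusted p = 0.0988), Gbp10 (0.493) and Gbp11 (0.0701) were not called. Gbp10 was not called with effective-length offsets either (edgeR adjusted p = 0.336), and 84.1% of its transcript words occur in other genes. Among IRGs, Tgtp1 averaged 109 ± 1.56 CPM with rapamycin and 164 ± 5.71 CPM untreated, and changed by -0.60 ± 0.04. Tgtp2, Ifi47, Gm12250 and Irgc1 changed by -0.53, -0.32, -0.71 and -1.03, and Gm12185 by -0.36 ± 0.15 (edgeR adjusted p = 0.042), with a log2 fold change of 0.05 on the log2(TPM + 1) scale that was not called. Irgc1, which averaged 1.91 ± 0.60 CPM with rapamycin and 3.88 ± 1.46 CPM untreated, was not called on that scale either (limma adjusted p = 0.0748). Tgtp1 and Tgtp2 are near-identical, with 81.2% and 86.6% of their transcript words shared with other genes, so their separate values are uncertain. Gbp11 is annotated as a polymorphic pseudogene and Gm12250 as a processed pseudogene.

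The predicted IRG genes 9930111J21Rik1 and 9930111J21Rik2, which lie beside the Tgtp genes on chromosome 11, rose. 9930111J21Rik1 averaged 237 ± 14.1 CPM with rapamycin and 126 ± 9.12 CPM untreated, a log2 fold change of 0.90 ± 0.05 (edgeR adjusted p = 1.7e-10). 9930111J21Rik2 averaged 426 ± 9.14 CPM with rapamycin and 254 ± 7.09 CPM untreated, a log2 fold change of 0.75 ± 0.03 (edgeR adjusted p = 5.69e-32). Both rises were also called with the length correction, at 0.82 and 0.54. They share 82.9% and 59.2% of their transcript words with other genes, mostly each other, so how reads are split between them is uncertain. In the promoter stretches searched, the 1 match to either motif was an ISRE match 27 bases after the start of 9930111J21Rik1. The stretch for 9930111J21Rik2 ended partway through the same letters, so the search could not show whether that match is there too. Irgq, an IRG relative that is not known to be induced by interferon, rose by 0.24 ± 0.08 (length-corrected -0.01, not called, and not called on the log2(TPM + 1) scale).

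Upstream of the GTPases, receptor genes were higher and most transcription factor genes lower. Of 5 ligand and receptor genes tested 4 were higher and 0 lower, or 80% and 0%, against 24.1% and 23.3% of all genes. They were Ifngr1, the binding chain of the interferon gamma receptor, by 0.42 ± 0.04, Ifnar1 by 0.26 ± 0.03, Ifnar2 by 0.23 ± 0.06 and Ifngr2 by 0.16 ± 0.07 (length-corrected 0.10, not called). Ifnar2 and Ifngr2 were not called on the log2(TPM + 1) scale (limma adjusted p = 0.173 and 0.25) or with effective-length offsets (edgeR adjusted p = 0.703 and 0.411). Ifng itself was under the filter, at 0 to 0.116 CPM in rapamycin libraries and 0.203 to 0.571 CPM in untreated libraries, where a floor of 3 counts is 0.260 to 0.348 CPM. Of 15 kinase and transcription factor genes 8 were lower and 3 higher. The kinase genes Jak1 and Jak2 rose by 0.31 ± 0.02 and 0.32 ± 0.04 (length-corrected 0.15 and 0.14). Irf9 and Irf8 changed by -0.32 and -0.50. Stat2, which partners Irf9, changed by -0.22 (edgeR adjusted p = 6.28e-04), but was at 0.12 on the log2(TPM + 1) scale (limma adjusted p = 0.368) and at 0.00316 with effective-length offsets (edgeR adjusted p = 0.983). Irf2, which competes with activating interferon regulatory factors, rose by 0.32 ± 0.04.

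Among 11 inhibitor genes 5 were lower and 2 higher. Socs1, which blocks JAK kinases and is itself induced by interferon, fell by 0.56 ± 0.09 on the log2 scale, and the phosphatase genes Ptpn2 and Ptpn6 by 0.35 (limma adjusted p = 0.0504 on the log2(TPM + 1) scale) and 0.44. Downstream, 5 of 12 inflammasome and caspase genes were lower and 2 higher. Il1b fell the most of these, by 2.49 ± 0.31 on the log2 scale (edgeR adjusted p = 8.96e-10). It averaged 0.941 ± 0.293 CPM with rapamycin and 5.36 ± 1.16 CPM untreated. Myeloid markers, described below, also summed lower with rapamycin, and which cells held the Il1b RNA was not tested. The nucleic acid sensor gene Zbp1 fell by 0.67 ± 0.05, the adaptor gene Pycard by 0.53 ± 0.06 and the pore-forming gasdermin gene Gsdmd by 0.24 ± 0.06 (length-corrected -0.05, not called, and 0.19 on the log2(TPM + 1) scale, not called). Of 23 genes for ATG8 conjugation, which loads IRGs and GBPs onto vacuoles, and for ubiquitin partners, 3 were lower and 7 higher, with Tax1bp1 at 0.38 ± 0.03, Ulk1 at 0.37 ± 0.06 and Atg5 at -0.25 ± 0.09 (limma adjusted p = 0.245 on the log2(TPM + 1) scale). The prenylation and myristoylation enzymes that lipid-anchor some of these GTPases had 4 of 11 lower and 1 higher, or 36.4% and 9.09%. With the length correction 4 of these enzyme genes were lower and 2 higher. Against the 23.3% lower and 24.1% higher over all genes, the shares were 53.3% and 20% for kinases and transcription factors, 45.5% and 18.2% for inhibitors, 41.7% and 16.7% for inflammasome and caspase genes and 13.0% and 30.4% for ATG8 and ubiquitin genes. With the length correction the counts lower and higher were 8 and 5 for kinases and transcription factors, 7 and 0 for inhibitors, 4 and 1 for inflammasome and caspase genes and 5 and 9 for ATG8 and ubiquitin genes.

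**Figure D5:**
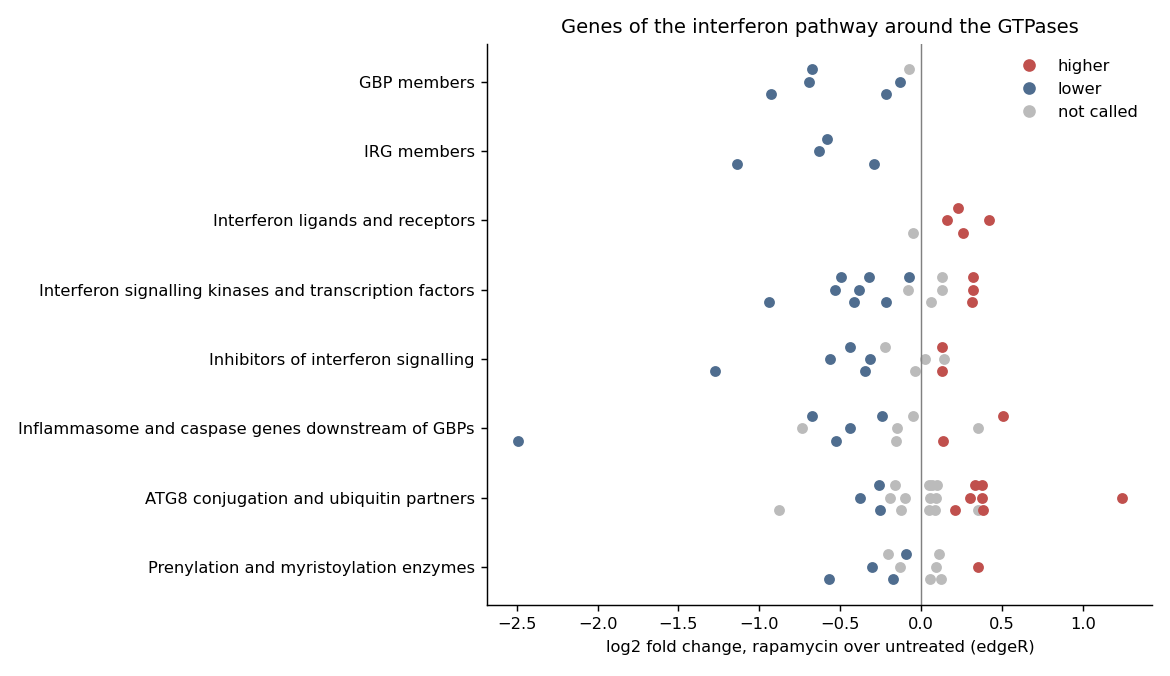
Log2 fold changes from edgeR, rapamycin over untreated, of the tested genes in each list, coloured by whether they were called higher (red), lower (blue) or not called (grey). 9 of the 10 GTPase genes are blue, and 4 of 5 ligand and receptor genes are red.

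The genes whose profile over the 6 libraries was most like that of Igtp, the gene with the highest mean TPM, were taken by the root mean square distance of centred log2 CPM among 9182 candidates. They were Sqle, an enzyme of cholesterol synthesis, at 0.017, the immunoproteasome gene Psmb8 at 0.019, and Xlr4c, the arginine synthesis gene Ass1, Ciapin1 and Clic1 at 0.035 to 0.036. The nearest members were Gbp6 at 0.049 and Irgm1 at 0.050.

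Total expected counts were 8757280 to 9315370 in rapamycin libraries and 9712671 to 11393317 in untreated libraries. Markers of naive CD4+ T cells were abundant, with 7131 to 7217 CPM summed over 11 genes in rapamycin libraries and 6619 to 6704 CPM in untreated libraries. Of these 11 genes 5 were lower and 5 higher, with log2 fold changes from -0.80 to 0.82. As with the GTPase genes, several lists of markers of other cells were lower, beside 23.3% of all genes lower and 24.1% higher. Those of myeloid cells, which can express GBPs and IRGs strongly, had 8 of 11 tested genes lower and summed to 52.4 to 55.3 CPM in rapamycin libraries and 98.6 to 106 CPM in untreated libraries, with 0 of 15 at 0 in every library. Memory and effector T cell markers summed to 340 to 347 CPM with rapamycin and 573 to 593 CPM untreated (6 of 8 tested lower, 2 higher), plasma cell markers to 41.4 to 45.0 CPM with rapamycin and 85.7 to 87.2 CPM untreated (5 of 7 lower, 1 higher), dendritic cell markers to 23.0 to 27.3 CPM with rapamycin and 37.7 to 38.5 CPM untreated (2 of 2 lower), and erythroid markers to 2.71 to 3.28 CPM with rapamycin and 8.09 to 11.5 CPM untreated (2 of 3 lower). Most of the dendritic cell sum was Bst2, which averaged 21.76 CPM with rapamycin and 32.99 CPM untreated. Bst2 is also in the list of other interferon-stimulated genes described below. Whether the lower dendritic cell sum reflects dendritic cells or an interferon-stimulated gene in other cells was not tested. NK cell markers summed to 69.1 to 71.6 CPM with rapamycin and 74.2 to 78.3 CPM untreated (3 of 8 lower, 1 higher). B cell markers summed to 1321 to 1369 CPM with rapamycin and 1577 to 1641 CPM untreated, with 3 of 12 lower, or 25%, near the share of all genes. In the opposite direction, CD8 T cell markers summed to 87.9 to 91.0 CPM with rapamycin and 19.1 to 20.5 CPM untreated (both higher). Platelet markers summed to 4.29 to 5.30 CPM with rapamycin and 1.90 to 3.76 CPM untreated (the 1 tested was higher). Regulatory T cell markers summed to 43.5 to 48.6 CPM with rapamycin and 43.7 to 46.2 CPM untreated (1 of 5 lower, 2 higher). The part of these cell types in the lower GTPase levels was not tested. In bulk RNA, fewer cells of a type and less RNA per cell cannot be told apart.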

How the data were processed

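Per the labels' protocols, total RNA was extracted with RNAiso PLUS and made into libraries with a directional NEBNext kit. Per the submitters' processing notes, STAR, RSEM and mm10 were used. Neither tool versions nor a gene annotation appear in the labels. Per the file headers, each deposited table lists, by gene, length, effective length, expected counts, TPM and FPKM. In the authors' expected counts, reads that fit several genes are divided among them by estimation, and TPM and FPKM are the authors' values scaled for effective length and depth. FPKM was not used in any result.

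GENCODE vM21 (GRCm38, also called mm10) gave symbols, positions and transcripts for 55227 of 55487 identifiers, and the 260 unmatched ones made up at most 0.0131% of any library. After rounding, expected counts were filtered with filterByExpr, scaled by TMM and tested with edgeR (glmQLFit, robust, group only). p-values were adjusted over all tested genes by Benjamini-Hochberg. The length correction was a per-library spline (5 degrees of freedom) on the log2 of gene length. The procedure was also run on simulated counts with the same dispersion for every gene and, in some runs, a linear length trend. Such counts say little about the spread between real libraries, and no result here rests on them. Software was edgeR 4.0.16, DESeq2 1.42.0 and limma 3.58.1 under R 4.3.3, with Python 3.11.15 for sequences and matplotlib 3.10.9 for figures.

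The 10 members and all gene lists were chosen with earlier results of these data known. Named genes were every member, every other tested GBP or IRG gene, receptor chains and main signalling genes, and from each list up to 6 members past the threshold by smallest adjusted p, of which a selection is printed; 1 gene that the rule named is not reported here. Alternatives were other scalings (RLE, upper-quartile, none), 2 other filters, DESeq2, voom, limma with 2 pseudocounts (1 and 0.1) on TPM, 2 kinds of length offset, rounding down, a replicate block, a minimum fold of 1.2, and each library left out in turn. The replicate numbers do not mark a shared animal or day in the labels. A floor of 3 counts was 0.260 to 0.348 CPM per library and covers counting error only. Protein sequences were not used here.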

Additional observations from a re-analysis of the deposited data

How the results depend on the processing

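Between 6 and 10 members were called lower and 0 higher under every alternative run: 10 with upper-quartile factors, no composition factors, no filter, counts rounded down and the length correction, 8 with DESeq2, 7 with effective-length offsets and 6 with either TPM test or against a fold of 1.2. Gbp2, Gbp3, Gbp6, Igtp, Irgm1 and Iigp1 were called lower under all of them. On log2(TPM + 1) and log2(TPM + 0.1), values turned to 0.0730 and 0.0749 for Gbp7 and 0.0550 and 0.0558 for Gbp9. The member median was -0.65 with upper-quartile factors, -0.65 with none, -0.49 and -0.52 on the TPM scales, -0.57 with the length correction and -0.63 with effective-length offsets. Other GBP and IRG genes called lower were 5 and 5 on the TPM scales. All genes called lower were 1151 and 1137 there, 1801 with effective-length offsets and 894, beside 990 higher, against a fold of 1.2. Of the calls, 42.5% were higher with upper-quartile factors, 42.8% with none and 70.3% on log2(TPM + 1), against 50.8%. The log2 ratio of summed TPM was -0.36, or -0.30 without Igtp. The causes were not tested.

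Leaving out 1 library gave 8 to 10 members lower, a member median of -0.63 to -0.58 and a summed TPM ratio of -0.37 to -0.34. Gbp7 lost its call without rapamycin replicate 2 (edgeR adjusted p = 0.0512) and Gbp9 gained one without untreated replicate 3 (edgeR adjusted p = 0.0268). Gbp7 also lost it with DESeq2 (adjusted p = 0.0524). With the replicate number as a block, 9 members were lower and 0 higher, and 2743 genes were lower and 2850 higher. Same-numbered libraries correlated at -0.025, -0.0092 and -0.031 over 9925 genes, so the numbers gave no sign of pairing. Depth limits Gbp3 most, with 87 to 196 expected counts a library.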

Other observations

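Other interferon-stimulated genes moved in both directions. Of 68 tested, 41 were lower and 18 higher, or 60.3% and 26.5%, against 23.3% and 24.1% of all genes, and their median log2 fold change was -0.30, against -0.61 for the 10 GTPase genes. The list shares Isg15 with the inhibitor list and genes with others. Lower were Ly6e, a surface protein gene that restricts viral entry, at -0.67 ± 0.02, the peptide transporter gene Tap1 at -0.43 ± 0.03, the nuclear body gene Sp110 at -0.40 ± 0.03 and the antiviral genes Oas3 at -0.71 ± 0.13 and Ifit1 at -0.62 ± 0.13. Higher were Ifi203 at 0.42 ± 0.03, Ifi209 at 0.40 ± 0.03, Ifi208 at 0.49 ± 0.04 and Mndal at 0.31 ± 0.03, which encode nuclear proteins related to the DNA sensor gene Aim2. Aim2 itself was at -0.05 ± 0.07 (edgeR adjusted p = 0.567), and at 0.27 on the log2(TPM + 1) scale (limma adjusted p = 0.0322). Samhd1, which degrades nucleotides, rose to 638 ± 17.1 CPM with rapamycin, against 456 ± 9.56 CPM untreated.

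The very large inducible GTPase genes, relatives of the GBP genes, were mostly higher before the length correction. Of those named here, Gm8995 and Gm1966 are annotated as unprocessed pseudogenes, and Gm4070 and Gvin1 as protein-coding genes. Gm8995 had 1834 ± 14.1 CPM with rapamycin and 1279 ± 21.9 CPM untreated, a log2 fold change of 0.52 ± 0.02, and 0.27 with the length correction. Gm1966 was at 0.51 ± 0.03 and 0.21 with it, Gm4070 at 0.30 ± 0.06 and 0.14 with it (not called), and Gvin1 at 0.25 ± 0.03, which turned to -0.10 with the correction (edgeR adjusted p = 0.00175). Of the Mx dynamin-like GTPases, Mx2 had 1.04 ± 0.730 CPM with rapamycin and 2.45 ± 0.0235 CPM untreated, a log2 fold change of -1.21 ± 0.38 (limma adjusted p = 0.167 on the log2(TPM + 1) scale), and Mx1 was not called, at -0.41 ± 0.45. Mx2 is annotated as a polymorphic pseudogene.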
